A study of Mus musculus with 6 samples.

Results

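The ZIP zinc importers (SLC39 family) were examined in splenic germinal centre B cells through 10 genes: Slc39a1, Slc39a3, Slc39a4, Slc39a6, Slc39a7, Slc39a8, Slc39a9, Slc39a10, Slc39a11 and Slc39a14. All 10 were found among the 18193 genes measured, with 21 of the 34945 probe sets that carry exactly 1 gene symbol. The probe set that represents each gene was chosen by its mean level in the 6 arrays (the brightest one), and the remaining probe sets are given beside it. The set of genes was built around Slc39a8, which was itself chosen by its difference between the genotypes compared below, so that difference is described and not tested. The other 9 genes belong to it by family.

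Total RNA was hybridised to Affymetrix mouse 430 2.0 arrays, a short-oligonucleotide platform whose values here are log2 expression levels. ImHABCL6/Uchl1 mice (3 arrays) carried the ImHABCL6 allele and a Uchl1 transgene, and ImHABCL6 mice (3 arrays) carried the ImHABCL6 allele alone. ImHABCL6 is an HA-tagged BCL6 expressed from an immunoglobulin heavy-chain promoter, so BCL6, the repressor that maintains germinal centre B cells, was deregulated in both groups. Uchl1 is a deubiquitinating enzyme, and neither the promoter of its transgene nor the age of the mice is stated in the labels. All mice had been immunised with sheep red blood cells, and the cells were enriched with magnetic beads.

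ZIP proteins move zinc into the cytosol, either across the plasma membrane or out of organelles, and the ZnT proteins (SLC30 family) move it the opposite way. Free zinc in the cytosol is sensed by the transcription factor MTF1, which binds metal response elements and induces the metal-binding metallothioneins Mt1 and Mt2 and the exporter Slc30a1. In mouse B cells Slc39a10 is known for its part in survival and antigen-receptor signalling, and Slc39a7 for B-cell development. Slc39a8 and its closest relative Slc39a14 also carry manganese, iron and cadmium.

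The genotype labels were checked on Uchl1, whose dim probe set was higher in all ImHABCL6/Uchl1 arrays. It read 5.96, 5.87 and 6.02 in ImHABCL6/Uchl1 arrays and at most 5.02 in ImHABCL6 arrays (exact permutation p = 0.1, the smallest that 3 arrays against 3 allow). Of 16 listed germinal centre B-cell markers 12 were measured, none of them dim, and their mean level was 10.37 to 10.90 in ImHABCL6/Uchl1 arrays and 10.47 to 10.51 in ImHABCL6 arrays. A gene is called dim here when its mean over the 6 arrays lies under 6 on the log2 scale. No gene passed the threshold in limma's moderated test (Benjamini-Hochberg adjusted p under 0.05, 0 of 18193, 0%), and 898 (4.94%) had an unadjusted p under 0.05. Adjusted p-values below are limma's over all 18193 genes, and differences are ImHABCL6/Uchl1 minus ImHABCL6 on the log2 scale.

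Slc39a8 was the one ZIP gene whose ImHABCL6/Uchl1 arrays all lay below the ImHABCL6 arrays. Its main probe set (1416832_at) read 6.95, 6.99 and 7.77 in ImHABCL6/Uchl1 arrays and 8.42, 8.47 and 8.68 in ImHABCL6 arrays. The ImHABCL6 arrays lay close together, replicates 1 and 2 of ImHABCL6/Uchl1 lay farthest below them, and replicate 3 of ImHABCL6/Uchl1 lay between. The means were 7.24 ± 0.46 in ImHABCL6/Uchl1 arrays and 8.53 ± 0.14 in ImHABCL6 arrays (SD, n = 3 each), a difference of -1.29 (SE 0.23), or 2.44-fold lower. In a preparation measured in bulk, fewer cells that express a gene and less RNA per cell cannot be told apart.

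The second Slc39a8 probe set (1448482_at) was dim and did not separate the genotypes. It read 3.08, 4.06 and 3.22 in ImHABCL6/Uchl1 arrays and 3.59, 3.65 and 4.001 in ImHABCL6 arrays. Its highest value of all belonged to ImHABCL6/Uchl1 replicate 2, one of the arrays lowest by the main probe set. Its difference was -0.30 (SE 0.26), and averaging both probe sets of the gene gave -0.79. The -1.29 therefore rests on 1 probe set.

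Slc39a14, the closest relative of Slc39a8 and likewise a carrier of several metals, did not share its pattern. Its main probe set (1427035_at) read 6.26, 5.58 and 6.17 in ImHABCL6/Uchl1 arrays and 5.95, 6.13 and 5.93 in ImHABCL6 arrays. ImHABCL6/Uchl1 replicate 2 was the lowest of the 6 arrays and replicates 1 and 3 the highest, so the groups overlapped. The difference was -0.0027 (SE 0.20, limma adjusted p = 0.999), with an unadjusted 95% interval of -0.45 to 0.45. Of its 3 dimmer probe sets, 1425649_at lay higher in every ImHABCL6/Uchl1 array, at 5.19, 5.26 and 5.20 against 5.17, 5.07 and 5.08 in ImHABCL6 arrays. That difference was 0.11 (SE 0.12, limma adjusted p = 0.999 over all 34945 probe sets).

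**Figure D1:**
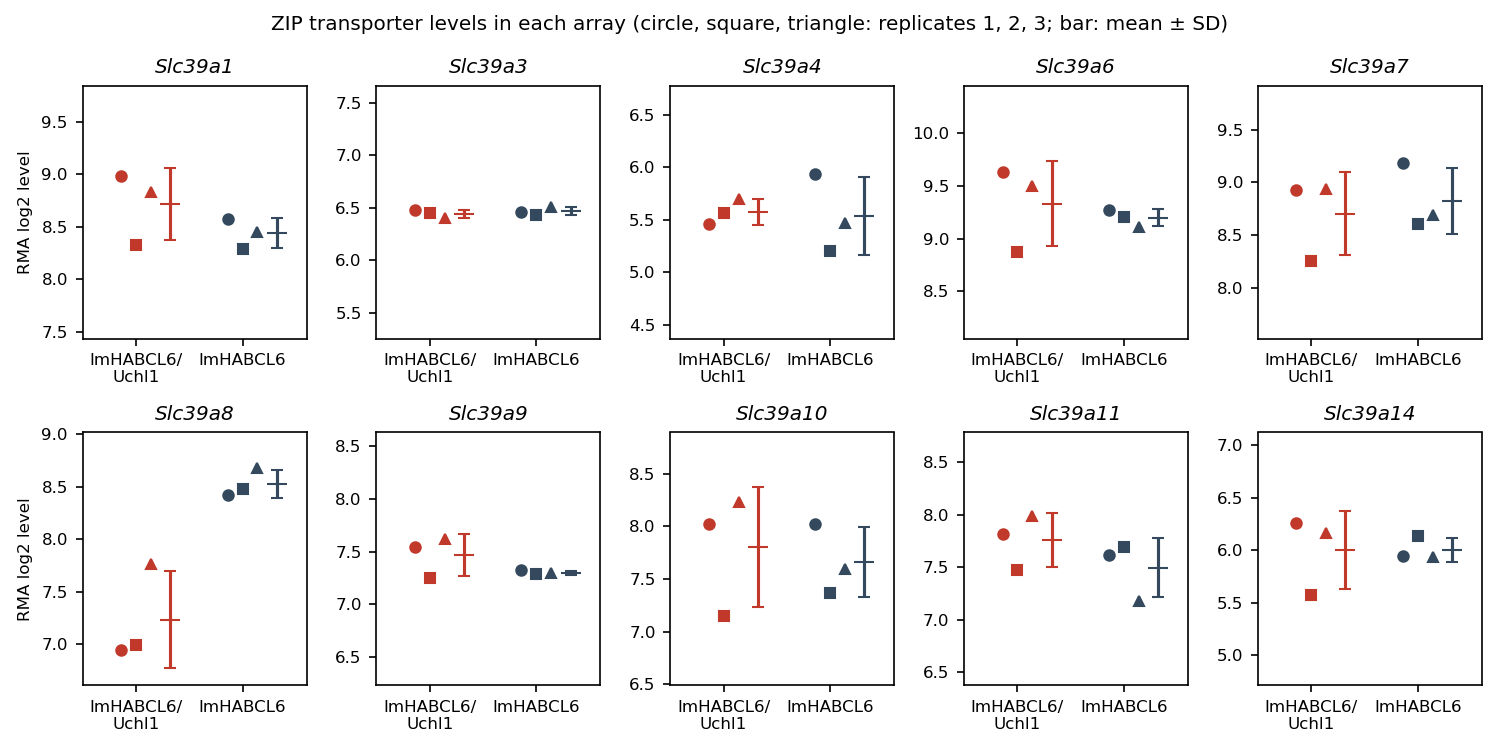
RMA log2 level (y axis, all panels spanning the same number of log2 units) of each of the 10 ZIP genes in 3 ImHABCL6/Uchl1 arrays (red, left) and 3 ImHABCL6 arrays (dark, right), with the mean and SD beside the points. Slc39a8 is the panel without overlap, at 6.95 to 7.77 in ImHABCL6/Uchl1 arrays and 8.42 to 8.68 in ImHABCL6 arrays.

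The 9 other ZIP genes overlapped between the genotypes, and none passed the test. Over all genes 9.44% did not overlap between the groups, with 5.49% lower and 3.95% higher in every ImHABCL6/Uchl1 array. Of the 10 ZIP genes 4 had a difference below 0, against 49.4% of all genes, and their median difference was 0.09, against 0.0029 over all genes. Without Slc39a8, differences of the main probe sets ran from -0.12 to 0.28, with limma adjusted p-values of 0.998 to 0.999. Exact permutation tests of the single genes gave p from 0.3 to 1.

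Apart from Slc39a8, the plasma membrane importer of largest difference was Slc39a1, a broadly expressed gene. Slc39a1 read 8.99, 8.33 and 8.83 in ImHABCL6/Uchl1 arrays and 8.57, 8.29 and 8.45 in ImHABCL6 arrays. Replicates 1 and 3 of ImHABCL6/Uchl1 were above every ImHABCL6 array and replicate 2 was among them. The difference was 0.28 (SE 0.19, limma adjusted p = 0.998), or 1.21-fold. Its relative Slc39a3 was the steadiest ZIP gene of the set, with all 6 arrays between 6.41 and 6.51 and a difference of -0.02 (SE 0.12).

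Slc39a10, which like Slc39a7 has a known part in mouse B cells, was the most variable of these genes after Slc39a8. It read 8.02, 7.15 and 8.23 in ImHABCL6/Uchl1 arrays and 8.02, 7.37 and 7.59 in ImHABCL6 arrays. Both groups held high and low arrays, and each group's replicate 2 was its lowest. The means were 7.80 ± 0.57 in ImHABCL6/Uchl1 arrays and 7.66 ± 0.33 in ImHABCL6 arrays (SD, n = 3 each), a difference of 0.14 (SE 0.29). The unadjusted 95% interval, -0.53 to 0.82, was the widest of the 9 genes.

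Slc39a6 (LIV-1), a plasma membrane importer that acts together with Slc39a10 in other mouse cells, read 9.63, 8.87 and 9.50 in ImHABCL6/Uchl1 arrays. It read 9.27, 9.21 and 9.11 in ImHABCL6 arrays, so the ImHABCL6/Uchl1 arrays lay on both sides of them. The difference was 0.14 (SE 0.21, limma adjusted p = 0.998), and its 3 other probe sets differed by 0.29, 0.31 and 0.07. Slc39a4, the importer through which the gut takes up dietary zinc, was the only dim gene of the 10. It ranged from 5.46 to 5.70 in ImHABCL6/Uchl1 arrays and from 5.21 to 5.94 in ImHABCL6 arrays.

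The ZIP genes of internal membranes gave the same picture of overlap. Slc39a7, which releases zinc from the endoplasmic reticulum, read 8.93, 8.25 and 8.93 in ImHABCL6/Uchl1 arrays and 9.18, 8.60 and 8.69 in ImHABCL6 arrays. Its difference was -0.12 (SE 0.24, limma adjusted p = 0.998), and its probe set is of a kind (suffix _s_at) that can match more than 1 transcript. Slc39a9, which resides at the Golgi, read 7.54, 7.24 and 7.62 in ImHABCL6/Uchl1 arrays and 7.28 to 7.32 in ImHABCL6 arrays. It was among the steadiest ZIP genes in ImHABCL6 arrays, and the ImHABCL6/Uchl1 arrays lay on both sides, with a difference of 0.17 (SE 0.14). Slc39a11, a ZIP protein of a separate branch of the family, read 7.82, 7.48 and 7.98 in ImHABCL6/Uchl1 arrays and 7.62, 7.69 and 7.18 in ImHABCL6 arrays, a difference of 0.26 (SE 0.19, limma adjusted p = 0.998).

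Slc39a8 was low in both replicates 1 and 2 of ImHABCL6/Uchl1, while most other ZIP genes were low in replicate 2 alone. Of the 9 other genes, 7 had their lowest ImHABCL6/Uchl1 value in replicate 2, and for 5 of them it was the lowest of all 6 arrays. Slc39a4 had its lowest ImHABCL6/Uchl1 value in replicate 1 and Slc39a3 in replicate 3. Shares over all genes were not taken for these counts. A low replicate 2 was not particular to ZIP genes. The mean of 14 NF-kB genes was 9.22, 8.73 and 9.08 in ImHABCL6/Uchl1 arrays, while that of 15 erythroid markers was highest in replicate 2 of them. The mean of the 9 genes, after each was centred on its own mean, was 0.20, -0.27 and 0.22 in ImHABCL6/Uchl1 arrays and 0.11, -0.13 and -0.13 in ImHABCL6 arrays. Slc39a8 centred the same way was -0.93, -0.89 and -0.11 in ImHABCL6/Uchl1 arrays and 0.54, 0.59 and 0.80 in ImHABCL6 arrays. Replicate 1 of ImHABCL6/Uchl1 was thus low for Slc39a8 and above average in the mean of the others. Of the 10 ZIP genes, 8 had a larger SD in ImHABCL6/Uchl1 arrays than in ImHABCL6 arrays. The share over all genes was not taken, so this count does not set the ZIP genes apart. The mean of the germinal centre B-cell markers also varied more in ImHABCL6/Uchl1 arrays (SD 0.30 against 0.02). That of the granulocyte markers varied less there (SD 0.17 against 0.55).

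The 19 probe sets of these 9 genes gave the same range as the main ones. Their differences ran from -0.15 to 0.31, 7 were below 0 and 12 above, and 0 had an unadjusted p under 0.05. Only the dim Slc39a14 probe set given above did not overlap. Of the 19, 9 were dim. The 4 further ZIP genes on the array, Slc39a2 (-0.17, SE 0.15), Slc39a5 (0.21, SE 0.22), Slc39a12 (0.05, SE 0.12) and Slc39a13 (0.15, SE 0.17), overlapped as well, and 3 of them were dim.

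Red-cell precursor transcripts varied between arrays and, like Slc39a8, were lower on average in ImHABCL6/Uchl1 arrays. Of 15 measured erythroid markers 14 were lower in ImHABCL6/Uchl1 arrays and 1 was dim, with a median difference of -1.04. Among them carbonic anhydrase Car1 (-0.86, SE 0.24), the transcription factors Gata1 (-1.10, SE 0.38) and Klf1 (-1.30, SE 0.45) and the receptor of erythropoietin, Epor (-1.02, SE 0.36), did not pass (limma adjusted p = 0.877 to 0.983). Car1, Gata1 and Klf1 (20% of the list, against 5.49% of all genes) were lower in every ImHABCL6/Uchl1 array. Without ImHABCL6/Uchl1 replicate 1 the differences were -0.56 for Car1, -0.62 for Gata1, -0.73 for Klf1 and -0.66 for Epor. The mean level of the 15 was 8.93, 10.87 and 10.28 in ImHABCL6/Uchl1 arrays and 10.47, 11.01 and 11.42 in ImHABCL6 arrays.

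Slc39a8 and the erythroid mean were both lowest in ImHABCL6/Uchl1 replicate 1 and highest in ImHABCL6 replicate 3. The arrays lowest in Slc39a8 were not all low in the mean of the erythroid markers, though single markers differed in this. ImHABCL6/Uchl1 replicate 2 had an erythroid mean within the range of the ImHABCL6 arrays and a Slc39a8 level of 6.99, below all of them. In the same array Car1 (10.77), Gata1 (9.20) and Klf1 (11.31) were also below every ImHABCL6 array. For the other 12 of the 15 markers the groups overlapped. With the erythroid mean as a covariate the Slc39a8 difference was -1.15, and without ImHABCL6/Uchl1 replicate 1, the array of lowest erythroid mean, it was also -1.15. Leaving out ImHABCL6/Uchl1 replicate 3 gave -1.55. The erythroid mean itself differed by -0.94 between the genotypes, and the part of erythroid transcripts in the Slc39a8 difference was not tested.

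**Figure D2:**
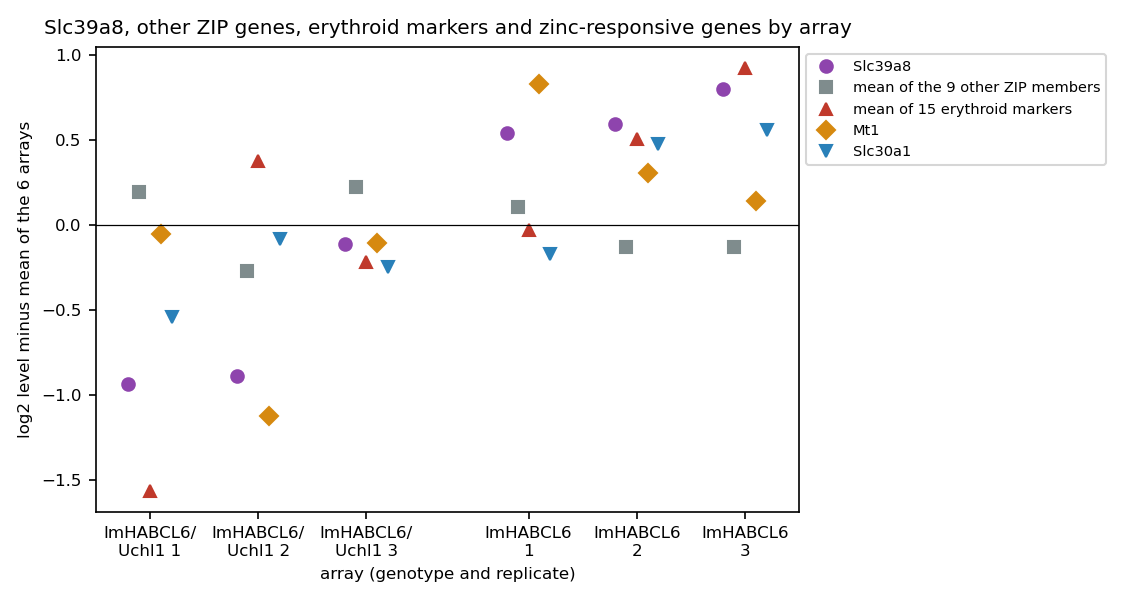
Log2 level minus the gene's or list's mean of the 6 arrays (y axis) for Slc39a8, the mean of the 9 other ZIP genes, the mean of 15 erythroid markers, Mt1 and Slc30a1, by array (x axis, ImHABCL6/Uchl1 left, ImHABCL6 right). Slc39a8 and the mean of the erythroid markers were both lowest in ImHABCL6/Uchl1 replicate 1 (-0.93 and -1.56) and highest in ImHABCL6 replicate 3 (0.80 and 0.92). In ImHABCL6/Uchl1 replicate 2 Slc39a8 was at -0.89 while the mean of the erythroid markers was at 0.38.

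The mean levels of markers of the other cell types that a spleen preparation can hold overlapped between the genotypes. Mean levels of 11 macrophage markers were 4.61 to 4.88 in ImHABCL6/Uchl1 arrays and 4.66 to 4.78 in ImHABCL6 arrays, and 9 of the 11 were dim. For 10 T-cell markers, 8 of them dim, they were 5.08 to 5.28 in ImHABCL6/Uchl1 arrays and 5.11 to 5.23 in ImHABCL6 arrays. For 8 granulocyte markers, 7 of them dim, they were 5.10 to 5.43 in ImHABCL6/Uchl1 arrays and 5.14 to 6.19 in ImHABCL6 arrays. Of these 8 markers 7 were lower in ImHABCL6/Uchl1 arrays, and the antimicrobial peptide gene Camp was lower in every one (12.5% of the list, against 5.49% of all genes), at 5.67, 5.49 and 5.59 against 6.28, 5.84 and 5.72 in ImHABCL6 arrays. Myeloperoxidase (Mpo) read 5.36, 5.29 and 6.10 in ImHABCL6/Uchl1 arrays and 8.31, 6.78 and 5.45 in ImHABCL6 arrays, a difference of -1.27 (SE 0.62, limma adjusted p = 0.998). When ImHABCL6 replicate 1 was left out, Mpo differed by -0.53 and Camp by -0.20, instead of -0.36 (SE 0.17, limma adjusted p = 0.998) over all arrays. The part of granulocyte transcripts in the Slc39a8 difference was not tested. The ranges of plasma cell markers, 9.19 to 9.42 in ImHABCL6/Uchl1 arrays and 9.13 to 9.45 in ImHABCL6 arrays, also overlapped, as did those of megakaryocyte and platelet markers, 7.38 to 8.54 in ImHABCL6/Uchl1 arrays and 7.62 to 8.52 in ImHABCL6 arrays. Jchain, the antibody joining chain of plasma cells, was slightly higher in every ImHABCL6/Uchl1 array (0.08, SE 0.12, limma adjusted p = 0.998). That is 1 of 7 plasma cell markers, against 3.95% of all genes.

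Mt1, Mt2 and Slc30a1, which respond to cytosolic zinc, were lower on average in ImHABCL6/Uchl1 arrays without passing the test. Of the 5 genes of metallothioneins and their regulator, 3 were lower and 2 higher, with a median of -0.04, and Mt1 and Mt2 (40% of the list, against 5.49% of all genes) were lower in every ImHABCL6/Uchl1 array. Mt1 read 7.72, 6.65 and 7.67 in ImHABCL6/Uchl1 arrays and 8.60, 8.08 and 7.91 in ImHABCL6 arrays, a difference of -0.85 (SE 0.31, limma adjusted p = 0.983). Mt2 read 7.79, 7.61 and 7.65 in ImHABCL6/Uchl1 arrays and 8.42, 7.93 and 7.79 in ImHABCL6 arrays, a difference of -0.36 (SE 0.18, limma adjusted p = 0.998). For Mt2 the highest ImHABCL6/Uchl1 array and the lowest ImHABCL6 array differed only in the third decimal. Without ImHABCL6 replicate 1 the Mt2 difference was -0.17, and array weights gave Mt1 -0.55, while leaving out ImHABCL6/Uchl1 replicate 2 gave it -0.50.

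The Mt1 difference depended on the probe set. The one above (1422557_s_at) can match more than 1 transcript, and the dimmer 1451612_at read 5.57, 6.29 and 5.32 in ImHABCL6/Uchl1 arrays and 5.47, 5.73 and 5.58 in ImHABCL6 arrays, a difference of 0.13. Mt1 was lowest in ImHABCL6/Uchl1 replicate 2 by the first probe set and highest there by the second. The metallothionein Mt3, best known from brain (0.07, SE 0.20), Mt4, known from stratified epithelia and dim here (0.04, SE 0.14), and Mtf1 (-0.04, SE 0.17) overlapped between the groups.

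Of the 10 ZnT exporter genes 6 were lower and 4 higher, with a median difference of -0.10 and 0 passed. Slc30a1, the plasma membrane exporter, read 7.55, 8.01 and 7.84 in ImHABCL6/Uchl1 arrays and 7.92, 8.57 and 8.65 in ImHABCL6 arrays, a difference of -0.58 (SE 0.22, limma adjusted p = 0.983). Replicate 1 of ImHABCL6 lay among the ImHABCL6/Uchl1 arrays. Slc30a9, which exports zinc from mitochondria, was the one ZnT gene without overlap, at 9.31, 9.87 and 9.41 in ImHABCL6/Uchl1 arrays and 10.01, 10.51 and 10.74 in ImHABCL6 arrays. That is 1 of 10 genes, near the 9.44% of all genes without overlap. The difference was -0.89 (SE 0.23, limma adjusted p = 0.854), or 1.85-fold lower.

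Slc30a1 and Slc30a9 were, like the erythroid markers, lowest in ImHABCL6/Uchl1 replicate 1 and highest in ImHABCL6 replicate 3. With the erythroid mean as a covariate the differences were -0.26 for Slc30a1, -0.56 for Slc30a9, -1.33 for Mt1 and -0.55 for Mt2. The erythroid covariate thus gave smaller sizes for both exporters and larger ones for both metallothioneins, and the part of red-cell transcripts in them was not tested. Slc30a4, which loads zinc into vesicles, read 6.91, 7.76 and 8.38 in ImHABCL6/Uchl1 arrays and 7.53, 6.99 and 7.20 in ImHABCL6 arrays (0.45, SE 0.34). Array weights gave Slc30a4 a difference of 0.99, and leaving out ImHABCL6/Uchl1 replicate 1 gave 0.84 and leaving out replicate 3 gave 0.097. Slc30a10, known as a manganese exporter, was dim and differed by -0.30 (SE 0.17), and its still dimmer second probe set, at -0.94 (SE 0.25, limma adjusted p = 0.882 over all probe sets), did not overlap. The second Slc30a1 probe set differed by -0.25. The 6 other ZnT genes overlapped between the groups.

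**Figure D3:**
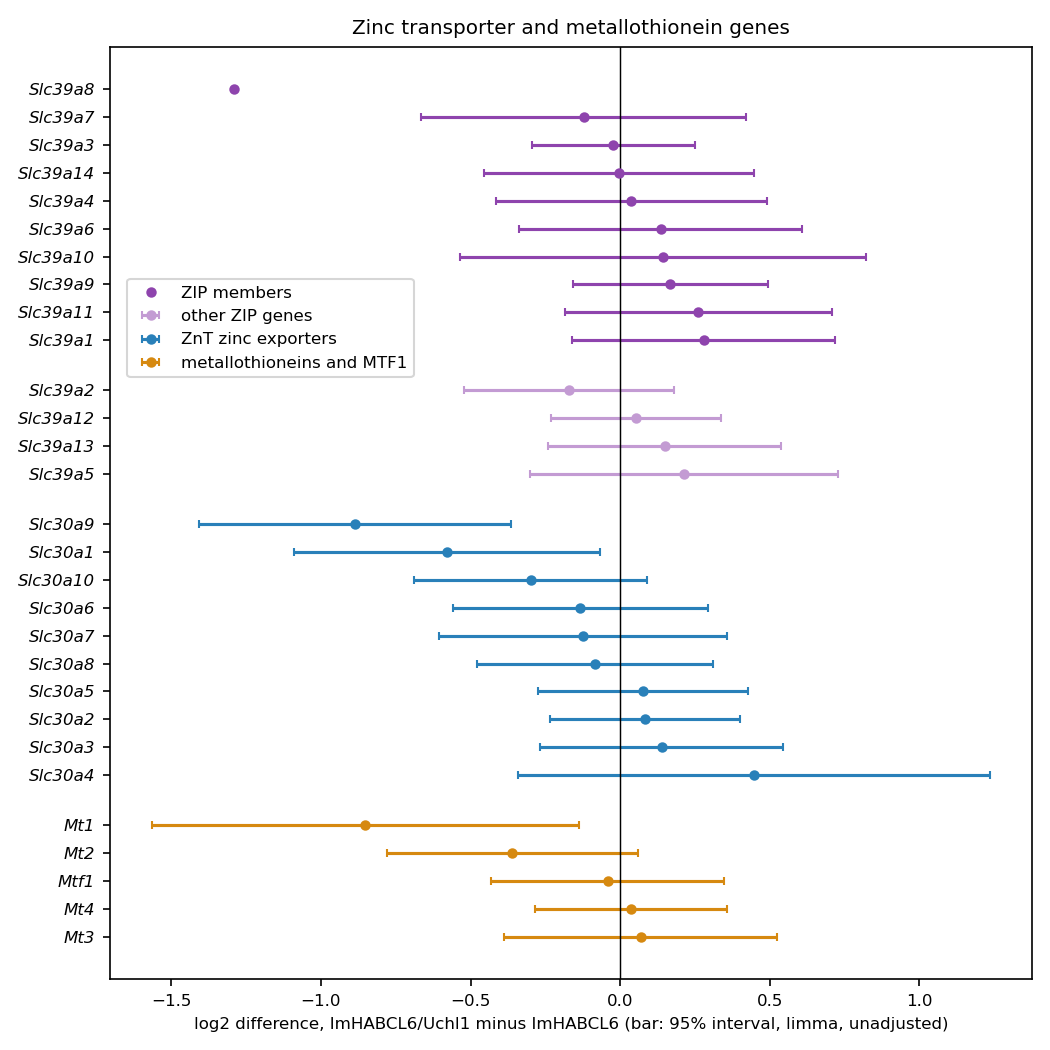
Log2 difference, ImHABCL6/Uchl1 minus ImHABCL6 (x axis), for ZIP, ZnT and metallothionein genes, with unadjusted 95% limma intervals and no interval for Slc39a8, which was chosen for this difference. Slc39a8 lies at -1.29, and the other ZIP genes lie between -0.17 and 0.28.

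Metal response elements were looked up in the promoter windows of these genes because Mt1, Mt2 and Slc30a1 are textbook MTF1 targets. The motif searched was TGCACNC or TGCGCNC on either strand, in windows of 300 bases that run from 250 bases before a gene's start to 50 after it (RefSeq, GRCm38.p6). It occurs at least once in 25.7% of 32851 windows, at least 2 times in 7.11%, at least 3 times in 1.97% and at least 4 times in 0.52%. The Mt1 window held 3 matches, the Mt2 window 4 and the Slc30a1 window 2, and the ends of the windows limit these counts. Such counts were not particular to these 3 genes. The windows of Slc30a10 and Slc30a4 held 3 each and that of Slc30a2 held 2, while the remaining ZnT windows searched held 0 or 1. Mt3 and Mt4 had 1 each and Mtf1 had 0. Windows were available for 7 of the 10 ZIP genes, and 4 of their 10 windows held 1 match each. The windows of Mt1, Slc30a1 and both annotated starts of Slc39a8 are shown with the matches in capitals, so that the targets can be set beside the importer.
Mt1, chr8:94178839-94179138, plus strand: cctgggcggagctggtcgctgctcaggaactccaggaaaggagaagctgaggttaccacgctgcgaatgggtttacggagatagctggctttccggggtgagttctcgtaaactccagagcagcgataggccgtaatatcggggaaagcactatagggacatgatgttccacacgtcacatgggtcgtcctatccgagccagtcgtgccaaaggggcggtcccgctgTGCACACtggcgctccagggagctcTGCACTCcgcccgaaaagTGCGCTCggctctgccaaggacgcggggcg
Slc30a1, chr1:191906531-191906830, plus strand: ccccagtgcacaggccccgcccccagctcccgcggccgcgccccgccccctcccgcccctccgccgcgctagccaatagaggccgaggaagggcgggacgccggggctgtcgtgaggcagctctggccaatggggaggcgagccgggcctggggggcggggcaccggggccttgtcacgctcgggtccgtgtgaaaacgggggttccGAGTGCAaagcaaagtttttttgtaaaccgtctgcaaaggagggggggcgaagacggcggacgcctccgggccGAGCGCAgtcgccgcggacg
Slc39a8, chr3:135825029-135825328, plus strand: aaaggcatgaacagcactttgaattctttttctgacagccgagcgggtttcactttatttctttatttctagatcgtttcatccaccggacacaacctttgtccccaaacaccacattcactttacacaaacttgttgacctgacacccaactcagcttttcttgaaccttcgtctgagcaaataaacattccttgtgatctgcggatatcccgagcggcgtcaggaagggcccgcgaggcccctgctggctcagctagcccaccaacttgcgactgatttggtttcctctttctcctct
Slc39a8, chr3:135825407-135825706, plus strand: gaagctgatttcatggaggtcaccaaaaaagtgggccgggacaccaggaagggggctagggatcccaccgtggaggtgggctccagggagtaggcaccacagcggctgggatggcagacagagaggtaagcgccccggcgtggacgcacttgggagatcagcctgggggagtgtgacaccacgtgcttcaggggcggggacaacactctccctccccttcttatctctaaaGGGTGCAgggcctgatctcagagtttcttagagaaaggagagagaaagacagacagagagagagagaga
Slc39a8 had 1 match, in the window of its downstream start, and 0 in the other. A match describes letters only, and no binding was measured here.

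Genes that handle iron and manganese, the other metals of Slc39a8, were mostly lower. Of 17 measured genes 14 were lower and 3 higher, with a median of -0.15 and 0 passed, and 4 (23.5% of the list) were lower in every ImHABCL6/Uchl1 array, against 5.49% of all genes. The proton-coupled iron and manganese carrier Slc11a2 (DMT1) read 6.82, 7.40 and 7.55 in ImHABCL6/Uchl1 arrays and 7.74, 8.15 and 8.52 in ImHABCL6 arrays, a difference of -0.88 (SE 0.25, limma adjusted p = 0.877). All 4 of its probe sets were lower, by -0.63 to -0.88.

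The iron exporter ferroportin (Slc40a1) read 6.97, 8.13 and 8.17 in ImHABCL6/Uchl1 arrays and 8.65, 8.65 and 9.01 in ImHABCL6 arrays, a difference of -1.01 (SE 0.31, limma adjusted p = 0.948). The transferrin receptors Tfr2 (-0.62, SE 0.21) and Tfrc (-0.96, SE 0.38) did not pass either (limma adjusted p = 0.983 and 0.988). A second Tfr2 probe set did not overlap, at 6.86, 7.08 and 7.37 in ImHABCL6/Uchl1 arrays and 8.28, 8.17 and 8.34 in ImHABCL6 arrays. It differed by -1.16 (SE 0.16, limma adjusted p = 0.551 over all probe sets). Tfrc was lowest in ImHABCL6/Uchl1 replicate 1 at 11.18 and highest in ImHABCL6 replicate 3 at 13.44. Slc11a2, Slc40a1, Tfr2 and Tfrc are abundant in red-cell precursors, and all 4 were lowest in ImHABCL6/Uchl1 replicate 1, the array of lowest erythroid mean. Without that array the differences of their main probe sets were -0.66 for Slc11a2, -0.62 for Slc40a1, -0.41 for Tfr2 and -0.56 for Tfrc. With the erythroid mean as a covariate their differences were -0.48 for Slc11a2, -0.46 for Slc40a1, -0.27 for Tfr2 and -0.24 for Tfrc. The part of red-cell transcripts in these differences was not tested.

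Slc39a8 is known in human cells as a target and an inhibitor of NF-kB, whose genes differed little here. Of 14 measured NF-kB genes 5 were lower and 9 higher, with a median of 0.04 and a range of -0.28 to 0.11. The subunit Rela was higher in every ImHABCL6/Uchl1 array, at 9.75 to 9.84 against 9.66 to 9.72 in ImHABCL6 arrays (0.10, SE 0.12, limma adjusted p = 0.998). That is 1 of 14 genes, while 3.95% of all genes were higher in every ImHABCL6/Uchl1 array. The subunit Relb (-0.17, SE 0.24), the regulator Nfkbiz (-0.28, SE 0.37) and the kinase scaffold Ikbkg (0.11, SE 0.15) overlapped. Of the 12 measured germinal centre B-cell markers 1, the B-cell factor Pax5, was higher in every ImHABCL6/Uchl1 array (0.48, SE 0.17, limma adjusted p = 0.983), against the same 3.95% of all genes. Bcl6 (0.24), Cd79a (0.22) and Gcsam (-0.20) overlapped.

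The genes outside the ZIP family whose profile over the 6 arrays was nearest to that of Slc39a8 were Hnrnpll, Ptger3, Jmy, Tgm2, Septin8 and Pdia2. Nearness was the root mean square distance between log2 values centred on each gene's mean, and it ran from 0.13 for Hnrnpll to 0.19 for Pdia2, against a root mean square of 0.70 for Slc39a8 itself. Hnrnpll, a splicing regulator of lymphocytes, read 7.44, 7.72 and 8.15 in ImHABCL6/Uchl1 arrays and 8.82, 9.04 and 9.04 in ImHABCL6 arrays. As in Slc39a8, replicate 3 of ImHABCL6/Uchl1 was the nearest to the ImHABCL6 arrays, which lay together. Tgm2, a transglutaminase, read 6.76, 7.18 and 7.99 in ImHABCL6/Uchl1 arrays and 8.60, 8.47 and 8.94 in ImHABCL6 arrays. The others were the prostaglandin receptor Ptger3, dim here and with a second probe set at -0.03, the actin nucleator Jmy, the cytoskeletal GTPase Septin8 and the protein disulphide isomerase Pdia2. Since these genes were picked for likeness to Slc39a8, their separation follows from the choice.

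**Figure D4:**
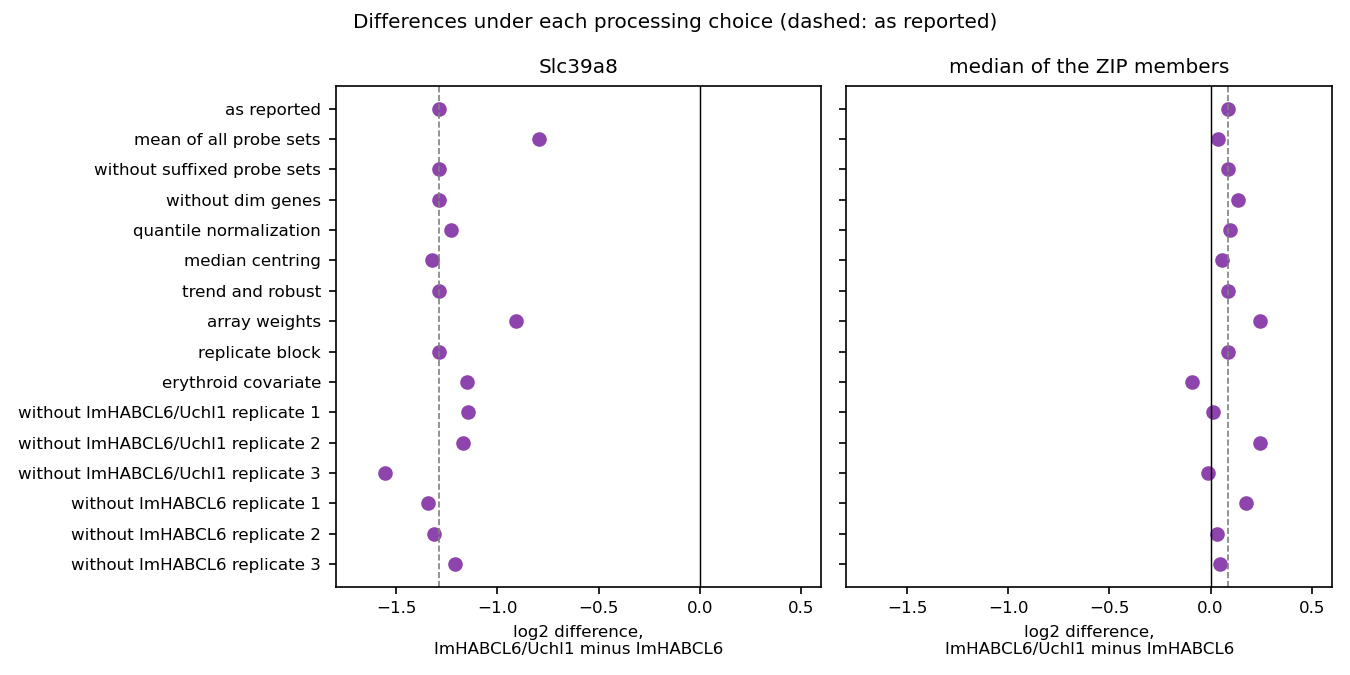
Log2 difference, ImHABCL6/Uchl1 minus ImHABCL6 (x axis), of Slc39a8 (left) and the median of the measured ZIP genes (right) under each processing choice (rows). Slc39a8 stayed between -1.55 and -0.79, and the median lay between -0.09 and 0.24, on both sides of 0.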

How the data were processed

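The log2 expression levels were deposited per probe set and array. The submitters' processing notes name RMA and Partek, without version or settings. RMA compresses differences of dim probe sets, and no detection calls were used. Array medians ran from 5.56 to 5.67. Of 45101 probe sets, 34945 had exactly 1 symbol in GEO's platform annotation, and 0 symbols changed when updated by Entrez ID with RefSeq (GRCm38.p6).

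The genotype comparison used limma 3.58.1 (lmFit, eBayes; R 4.3.3), two-sided, over 18193 genes, each at its brightest probe set, with Benjamini-Hochberg adjustment and a threshold of 0.05. The steps were tested on simulated data with normal noise. A rate of recovery was required there only for shifts larger than the differences described here, so that check does not show power for these. The design gives 3 mice per genotype, so arrays were taken as separate mice, and their number limits the precision. The members and the 13 gene lists were chosen with earlier results of these data known. Named were Uchl1, all ZIP genes, up to 4 genes of smallest p per list (all in lists of 5 or fewer) and the 6 genes nearest to Slc39a8. Of the marker lists of other cell types the erythroid genes and Camp, Mpo and Jchain are named, and the rest are given by level. Some listed markers were not analysed here. The alternatives were the other probe set rules, a dim filter, normalizations, limma options, array weights, a replicate block, an erythroid covariate and leaving out each array.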

Additional observations from a re-analysis of the deposited data

How the results depend on the processing

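No gene passed under any of the 15 alternatives (smallest limma adjusted p 0.0689, with array weights), and 387 to 2819 genes had an unadjusted p under 0.05. Slc39a8 was -0.79 with the mean of all probe sets, -0.91 with array weights, -1.55 to -1.15 when single arrays were left out and -1.32 to -1.15 under the remaining alternatives. The number of ZIP genes lower was 2 with array weights and 2 to 6 when single arrays were left out (2 without ImHABCL6/Uchl1 replicate 2, 6 without its replicate 3). The median of the ZIP genes was -0.0143 to 0.24 when single arrays were left out and -0.09 with the erythroid covariate. Deviations of arrays with the same replicate number correlated at 0.43, 0.19 and -0.26, which does not settle whether the numbers pair the arrays. With a replicate block 0 genes passed (smallest limma adjusted p 0.262) and Slc39a8 was again at -1.29. Of 48 other named genes 18 changed sign at least once, in 34 of 705 values, and 0 values passed. Averaging the probe sets of a gene turned the sign of Slc39a9 (-0.0098), Slc39a3 (0.029), Slc39a14 (0.040), Mtf1 (0.034) and Ikbkg (-0.038), and leaving out suffixed probe sets that of Mt1 (0.13). With array weights it turned for Slc39a7 (0.12), Slc39a14 (0.10), Mtf1 (0.048) and Ikbkg (-0.012), with the erythroid covariate for Slc39a6 (-0.15), Slc39a10 (-0.21), Slc39a2 (0.010), Ikbkg (-0.034) and Cd79a (-0.035), and with quantile normalization for Mtf1 (0.024). Leaving out single arrays gave the following ranges that cross 0: Slc39a6 -0.013 to 0.37, Slc39a7 -0.24 to 0.10, Slc39a10 -0.071 to 0.47, Slc39a4 -0.13 to 0.24, Slc39a14 -0.13 to 0.21, Slc39a5 -0.032 to 0.36, Mt3 -0.072 to 0.25, Mt4 -0.024 to 0.12, Mtf1 -0.13 to 0.12, Nfkbiz -0.63 to 0.069, Relb -0.31 to 0.11 and Gcsam -0.37 to 0.020. The cause was not tested.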
